A study of Mus musculus with 9 samples.

Results

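The mRNAs of the cytosolic ribosomal proteins were followed in mouse hearts after a myocardial infarction. Members were the genes typed as protein coding whose symbol is Rpl or Rps followed by a number, or Rplp0, Rplp1, Rplp2 or Rpsa; the ribosomal S6 kinases and Rps19bp1 were left out. The rule matched 102 of the 25468 genes in the file. Of these, 86 had a mean of 1 FPKM or more over the 9 libraries and were tested among 13514 genes, 52 of them named for the large subunit and 34 for the small subunit. The other 16 were Rpl10l, Rpl39l, Rps27rt and 13 genes whose names end in -ps, the mark of a pseudogene. A further 4 such genes passed the minimum (Rpl9-ps6, Rpl10-ps3, Rps26-ps1 and Rps12-ps3).

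Each library was bulk RNA sequencing of heart tissue from wild-type mice. The groups were hearts 1 day after the surgery that caused the infarction (n = 3 libraries), hearts 7 days after it (n = 3) and hearts after a sham operation (n = 3). When the sham hearts were collected, how old the mice were and whether each library is 1 animal are not in the labels. A p-value here therefore measures library-to-library spread, part of which may be technical. Hdc-/- mice named in the protocol were not analysed here. Values are FPKM, a fragment level per transcript length and library depth, summed over the transcript entries of a gene. Fold changes are differences of log2(FPKM + 1), and genes with an adjusted p under 0.05 in limma (Benjamini-Hochberg over all genes tested) count as called.

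The cytosolic ribosome is built in the nucleolus from ribosomal RNA, made by RNA polymerase I, and from ribosomal proteins that are made in the cytosol and carried back into the nucleus. The proteins are needed in equal numbers in each ribosome, with the stalk proteins Rplp1 and Rplp2 as an exception. Their mRNAs begin with a run of pyrimidines, the terminal oligopyrimidine (TOP) tract, through which mTOR and Larp1 set how strongly they are translated. Heart and skeletal muscle also make Rpl3l, a muscle-restricted form of Rpl3.

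The starts of 6 transcript entries are shown because the results below turn on these mRNAs. They are the first 30 bases of the GENCODE M21 transcripts (GRCm38), printed 5′ to 3′ as DNA letters, with each run of 8 or more C or T in capitals. The chromosomes are 14 for Rps24, 3 for Rps27, 9 for Rplp1, 17 for Rpl3l and 15 for Rpl3.
Rps24-202: CTCTTTTCCTCCTCTCCagctccggcgccg
Rps24-201: cttgcgcgttgatatgattggtcggcagtg
Rps27-201: gCTCCTTTCCggcggtgacgacctccctac
Rplp1-201: gaTCTTTTCCTCagctgccgccaaggtgct
Rpl3l-202: agctctgtcatttgacctctggtgcctggt
Rpl3-201: agggggcggagccatcacttggctttatat
Rps24-202 opens with a run of 17 pyrimidines, and the run begins at base 2 in Rps27-201 and at base 3 in Rplp1-201. Such a run, read on the transcribed strand only, stood in the first 30 bases of 31 of 144 member entries that match this annotation (21.5%) and in 1811 of all 19477 matched entries tested (9.3%). The share depends on where the annotation starts each transcript, and an entry without a run in this window may still come from a gene with a TOP mRNA.

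Some libraries stood apart, and this touches every result below. The FPKM of all genes summed to 597380 to 729940 in day 1 libraries, 521643 to 679204 in day 7 libraries and 768943 to 792632 in sham libraries, so levels had not been brought to a common total. Members moved together from library to library: day 1 replicate 3 was the highest day 1 library for 85 of the 86 members, day 7 replicate 3 the lowest day 7 library for 76, and sham replicate 2 the lowest sham library for 81. Over all genes tested, the same libraries took those places for 46.7%, 30.8% and 32.7% of genes. Summed over 5 airway markers such as Scgb1a1 and Sftpc, day 1 replicate 2 had 1759 FPKM and sham replicate 1 had 202 FPKM, against at most 17.0 FPKM in any other library. Atrial markers (5, such as Myl7 and Sln) summed to 11057, 4361 and 282 FPKM at day 1. They summed to 5405, 775 and 1398 FPKM at day 7, and to 2677, 1446 and 229 FPKM in sham hearts. For 5 adipocyte markers, sham replicate 1 had 472 FPKM, against at most 116 FPKM in any other library. The part of such tissue differences was not tested. The depth of each library is unknown, since only FPKM were used here. Many ribosomal protein genes have near-identical copies. In GENCODE M21, 56 of the 86 have at least 1 pseudogene named after them, 288 in all, and 39 share exon bases with a different gene, often a small nucleolar RNA, including 28 with one on their own strand. The sources used here do not say how such reads were divided, so the level of any single member is uncertain.

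The FPKM of the members summed to 38884, 39786 and 48923 in day 1 libraries, 43279, 45553 and 38730 in day 7 libraries, and 49669, 42269 and 49948 in sham libraries. The groups overlapped. As a share of the FPKM of all genes this was 6.55 ± 0.23% at day 1, 7.02 ± 1.30% at day 7 and 6.03 ± 0.61% in sham hearts (SD, n = 3 each). The shares overlapped too. Day 7 replicate 1 had the highest share, 8.30%, and the lowest share of mitochondrially encoded genes, 24.4% against 34.2 to 39.8% elsewhere. Without mitochondrially encoded genes its members' share was 10.98%, inside the range of 8.73 to 11.1% of the other libraries.

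**Figure D1:**
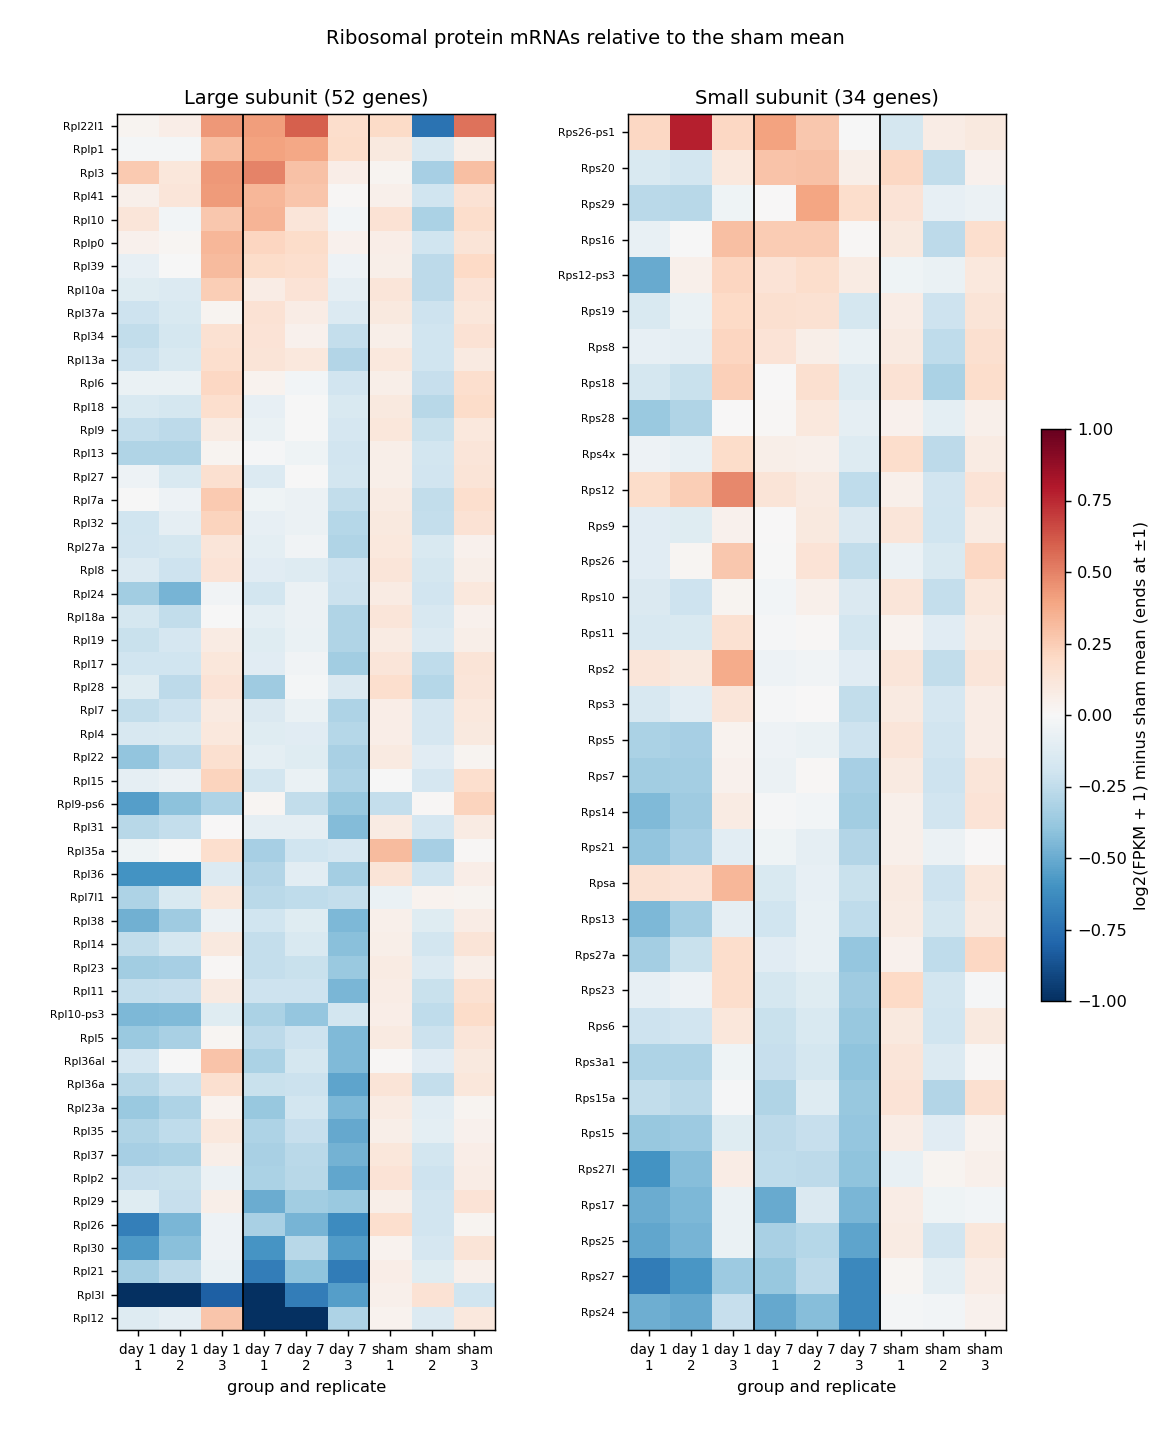
Level of each of the 86 ribosomal protein mRNAs (rows, ordered by the day 7 minus sham fold change within each subunit) in each library (columns), as log2(FPKM + 1) minus the mean of the 3 sham libraries. Whole columns shift together, with day 1 replicate 3 high and day 7 replicate 3 and sham replicate 2 low, while Rpl3l, Rps24 and Rps27 are lower in all 6 infarct libraries than in any sham library. Rpl12 is strongly low in day 7 replicates 1 and 2; colours end at a difference of 1.

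The levels span a wide range. The 5 highest members by mean FPKM over all libraries were Rps27, Rps29, Rps24, Rpl38 and Rpl23a, with 3162, 2343, 1367, 1352 and 1299 FPKM. The 5 lowest of the tested were Rpl7l1, a nucleolar relative of Rpl7, with 17.3 FPKM, and the 4 named pseudogenes, with 1.47 to 3.70 FPKM. Among the untested, Rpl10l and Rpl39l are paralogues best known from testis; Rpl10l was at 0 in every library and Rpl39l at no more than 0.384 FPKM. Rps27rt, a retrotransposed copy of Rps27, reached 1.03 FPKM. Leaving named pseudogenes aside, the lowest small-subunit genes were Rps20, with 48.5 FPKM in 1 entry, and Rps2, with 64.0 FPKM.

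Is the set higher or lower at day 1 than in sham hearts? At day 1, 3 of 86 members fell and none rose (3.49%), against 28.2% of all genes tested called in either direction, 13.4% higher and 14.7% lower. At an unadjusted p under 0.05 there were 7 lower and 0 higher. The median log2 fold change was -0.10 over the members and -0.01 over all genes, and 64 members were below 0. Of the 86, 84 changed by less than 0.5 on the log2 scale, and the median SE of a member was 0.15. The medians of the small-subunit and large-subunit genes were both -0.10. The 3 day 1 values did not overlap the 3 sham values for 10 members (11.6%; 3 higher and 7 lower), against 47.6% of all genes (22.5% higher and 25.1% lower).

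The direction of the whole set depended on how libraries were scaled. With every library rescaled to a common total (TPM), the median of the members was 0.17 at day 1 and 0.21 at day 7, beside 0.24 and 0.30 for all genes. The calls were then 3 higher and 1 lower at day 1, and 7 higher and 2 lower at day 7. Of all genes, 21.4% and 30.9% were called in those fits. With quantile normalization the medians were 0.17 and 0.07, beside -0.05 and -0.05 for all genes. The calls were 5 higher and 1 lower, and 4 higher and 1 lower, beside 27% and 29.8% of all genes called. Which direction the set moved in is therefore not fixed by these values.

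The members called at day 1 were Rpl3l, Rps27 and Rps24. Rps27, a small-subunit zinc finger protein and the most abundant member, had 2403, 2600 and 3028 FPKM at day 1, against 3944, 3646 and 4110 FPKM in sham hearts. Each day 1 library was below each sham library, a log2 fold change of -0.55 ± 0.17 (SE; adjusted p = 0.0382 in limma). At day 7 Rps27 had 2999, 3240 and 2491 FPKM, again below all sham libraries, with a log2 fold change of -0.43 that missed the threshold (adjusted p = 0.0750 in limma). The day 1 call did not hold without any 1 of sham replicates 1, 2 and 3, day 1 replicates 1 and 2 or day 7 replicate 2 (adjusted p of 0.0552 to 0.121 in limma), with fold changes between -0.64 and -0.47. It was also lost on a common total (TPM, -0.27, adjusted p = 0.254 in limma) and with quantile normalization, where Rps27 was at -0.01 (adjusted p = 0.984).

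Rps24, a small-subunit protein whose gene is mutated in some people with Diamond-Blackfan anaemia, was lower at both times. It had 1195, 1171 and 1425 FPKM at day 1, and 1172, 1245 and 1072 FPKM at day 7, against 1653, 1647 and 1725 FPKM in sham hearts. No infarct library reached the lowest sham library. The log2 fold changes were -0.41 ± 0.13 at day 1 (SE; adjusted p = 0.0463 in limma) and -0.53 ± 0.13 at day 7 (adjusted p = 0.0182 in limma). The day 7 call was lost without any 1 sham replicate (adjusted p of 0.0524 to 0.0596 in limma) and the day 1 call in 7 of 9 such fits, all but those without day 1 replicate 3 or day 7 replicate 1 (up to 0.156). The sham replicates are shared by both comparisons. On a common total the Rps24 fold changes were -0.13 and -0.17, and with quantile normalization -0.00 (adjusted p = 0.997 in limma) and -0.19, with no call in either.

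Day 7 hearts were compared with the same sham libraries. At day 7, 5 of 86 members fell and none rose (5.81%), against 33.1% of all genes called in either direction, 15.7% higher and 17.3% lower. They were Rpl12, Rpl3l, Rpl21, Rps24 and Rpl29. At an unadjusted p under 0.05 there were 15 lower and 0 higher. The median was -0.15 over the members and -0.02 over all genes, with 68 members below 0 and 82 within 0.5. The day 7 and sham values did not overlap for 22 members (25.6%; 21 lower and 1 higher), against 53.7% of all genes (28.8% lower and 25% higher). The median was -0.17 for large-subunit and -0.10 for small-subunit genes.

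Rpl21, a large-subunit protein, had 111, 137 and 111 FPKM at day 7, against 190, 166 and 188 FPKM in sham hearts. The groups did not overlap, and the log2 fold change was -0.60 ± 0.12 (SE; adjusted p = 0.00987 in limma). This call held without any 1 of the 9 libraries but not on a common total (TPM, -0.24). At day 1 the libraries had 143, 151 and 172 FPKM and the gene was not called (log2 fold change -0.22, adjusted p = 0.203 in limma). Rpl29, a large-subunit protein named for heparin binding, had 42.2, 47.0 and 46.2 FPKM at day 7, against 62.4, 52.4 and 66.1 FPKM in sham hearts. Every day 7 library was below every sham library, at a log2 fold change of -0.40 ± 0.12 (SE; adjusted p = 0.0288 in limma). The Rpl29 call was lost without sham replicate 1 or 3 or without any day 7 replicate (adjusted p of 0.0505 to 0.0912 in limma). It was also lost on a common total, at -0.05 (adjusted p = 0.752 in limma), and with quantile normalization, at -0.25. Rpl29 was not called at day 1, where it had 55.0, 51.1 and 62.5 FPKM.

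**Figure D2:**
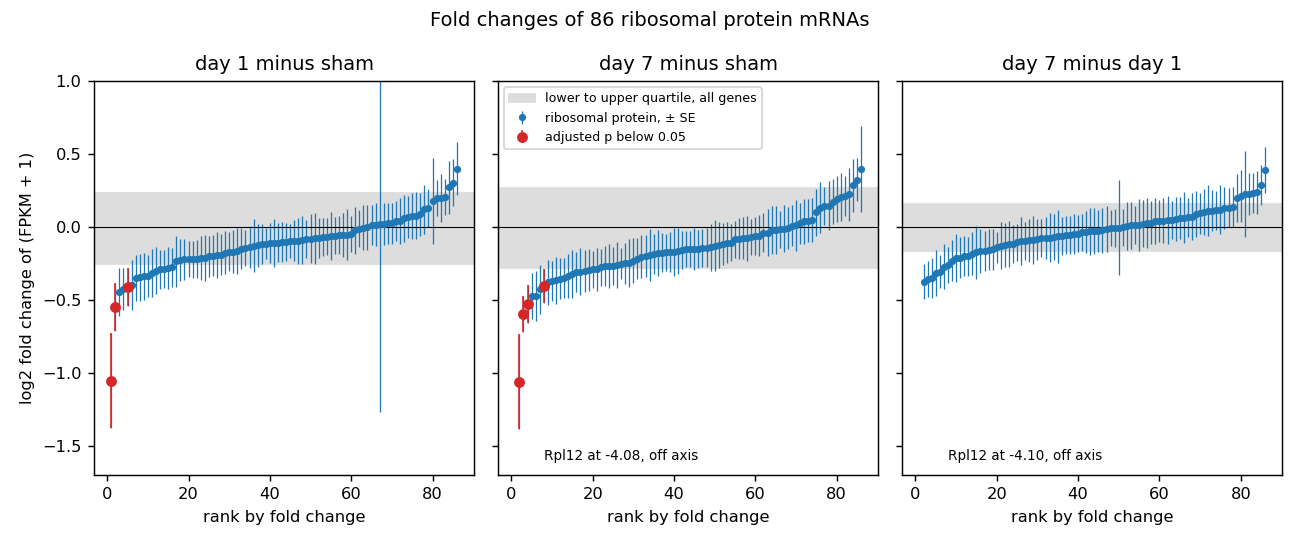
Log2 fold change of each of the 86 members (points, ± SE), ranked within each comparison, with members at an adjusted p below 0.05 in red and the lower to upper quartile of all genes tested as a grey band. Most members lie inside the band; 3 called members lie low at day 1 and 5 at day 7, Rpl12 is off the axis in both panels with day 7, and its long error bar at day 1 runs past the axis.

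None of the calls in either comparison with sham hearts held without both libraries with airway markers, day 1 replicate 2 and sham replicate 1. Without them 0 members were called in limma at either time, against 2.97% of all genes at day 1 and 15.7% at day 7. With all 9 libraries those shares of all genes were 28.2% and 33.1%. The fold changes moved little: Rps27 was at -0.52, Rps24 at -0.37 and -0.54, Rpl3l at -0.99 and -1.03, and Rpl21 at -0.56 with an adjusted p of 0.0541 in limma, the lowest. The part of airway tissue in these results was not tested.

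Between the infarct times few members differed. For day 7 minus day 1, 0 of 86 members were called in limma, against 4.85% of all genes (2.71% higher and 2.14% lower), and 6 had an unadjusted p under 0.05 (1 higher and 5 lower). The median was -0.03 over the members and -0.01 over all genes, and 85 members were within 0.5. The day 7 and day 1 values did not overlap for 11 members (12.8%; 1 higher and 10 lower), against 27.2% of all genes (13.1% higher and 14.1% lower). Rps29, a small-subunit zinc finger protein, was the member separated upward, with 2328, 3053 and 2623 FPKM at day 7, against 1926, 1920 and 2253 FPKM at day 1. Its log2 fold change was 0.39 (adjusted p = 0.185 in limma). Rpsa, also known as the laminin receptor precursor, was separated downward, with 312, 327 and 296 FPKM at day 7, against 385, 380 and 435 FPKM at day 1, a log2 fold change of -0.36 (adjusted p = 0.128 in limma). Sham hearts had 368, 300 and 375 FPKM of Rpsa.

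Because whole libraries shifted together, members were also compared with one another, by taking the mean of all members from each library. These values show only unequal change within the set. At day 1, 2 of 86 members were called (14.8% of all genes on this scale, 11.4% higher and 3.41% lower): Rps12 was higher by 0.42 ± 0.13 (SE; adjusted p = 0.0462 in limma) and Rps27 was lower, at -0.43 ± 0.12 (adjusted p = 0.0385 in limma). At day 7, 6 of 86 were called (20.7% of all genes, 17.6% higher and 3.07% lower): Rplp1, Rpl3, Rps20 and Rpl41 were higher, and Rpl12 and Rpl21 lower. For day 7 minus day 1, 0 were called (2.15% of all genes, 1.26% higher and 0.888% lower; 9 members at an unadjusted p under 0.05).

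Rplp1, an acidic protein of the stalk, was the one whose call held in all 11 alternatives run on this scale. They were centring on the median, leaving Rpl12 out of the mean, and leaving out each of the 9 libraries. The fit without both libraries with airway markers was not run on this scale. Relative to the mean of the members, its log2 level was 2.34, 2.27 and 2.21 at day 7, against 1.78, 1.78 and 1.71 in sham hearts, with no overlap. It was higher by 0.51 ± 0.12 (SE, adjusted p = 0.0108 in limma), and in the 11 alternatives by 0.47 to 0.55 (adjusted p up to 0.0484 in limma). As deposited, Rplp1 had 1445, 1431 and 1244 FPKM at day 7, 1078, 1078 and 1351 FPKM at day 1, and 1172, 981 and 1142 FPKM in sham hearts, and was not called at day 7 (log2 fold change 0.32, adjusted p = 0.120 in limma). The other calls on this scale were weaker. Rps12 had 1.96, 1.98 and 1.92 at day 1, against 1.51, 1.53 and 1.57 in sham hearts, yet lost its call in 7 of 9 fits that leave out 1 library (adjusted p of 0.0636 to 0.172 in limma; all but those without day 7 replicates 1 and 3). Rpl3 (0.48), Rps20 (0.40) and Rpl41 (0.40) at day 7 lost theirs in 6 or 7 of those 9 fits, and all 3 lost it when Rpl12 was left out of the mean. Rpl21 lost its call in 7 and Rps27 in 7.

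**Figure D3:**
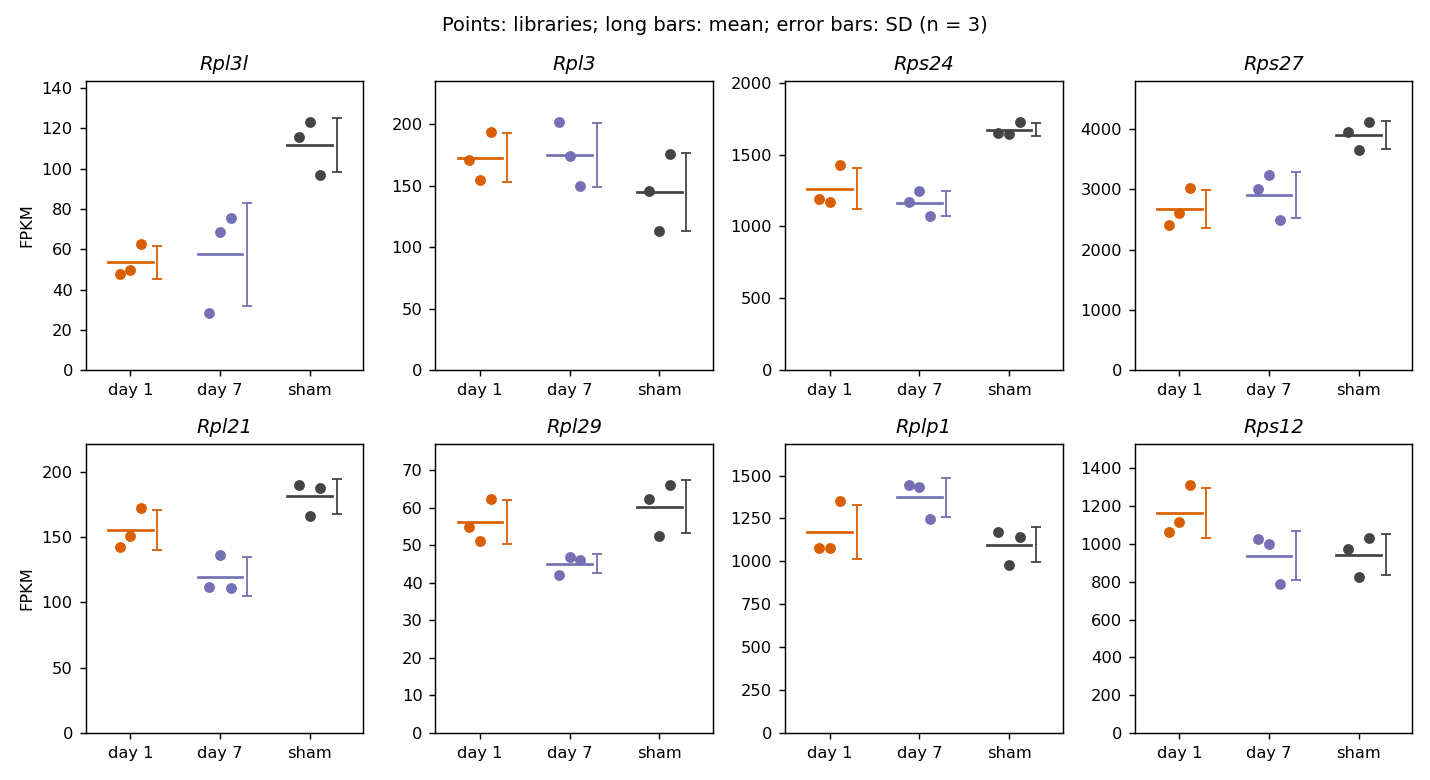
FPKM of 8 members in each library (points) with the mean (long bar) and SD (error bar) of the 3 libraries of day 1, day 7 and sham hearts. Rpl3l, Rps24 and Rps27 have no infarct library as high as a sham library, Rpl21 and Rpl29 separate from sham at day 7, and Rpl3, Rplp1 and Rps12 were not called on this scale.

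Rpl3l was the member with the largest fall at day 1. It had 47.6, 50.0 and 62.8 FPKM at day 1, and 28.3, 68.6 and 75.6 FPKM at day 7, against 116, 123 and 97.0 FPKM in sham hearts. All 6 infarct libraries were below all sham libraries, and day 7 replicate 1 was the lowest of all. The log2 fold changes were -1.05 ± 0.33 at day 1 (SE; adjusted p = 0.0414 in limma) and -1.06 ± 0.33 at day 7 (adjusted p = 0.0368 in limma). Its widely expressed counterpart Rpl3 had 171, 154 and 193 FPKM at day 1, and 202, 174 and 150 FPKM at day 7, against 146, 113 and 176 FPKM in sham hearts. The Rpl3 groups overlapped, and the fold changes of 0.27 and 0.29 were not called (adjusted p = 0.290 and 0.246 in limma). The day 1 call of Rpl3l was lost without any 1 day 1 or sham library (adjusted p of 0.0507 to 0.121 in limma), and the day 7 call without any 1 sham replicate or day 1 replicate 1 or 2 (0.0512 to 0.108). Over all 24 alternatives, each of these 2 calls was lost in 10 (adjusted p up to 0.212 at day 1 and 0.115 at day 7 in limma). The direction of Rpl3l held in all 24, and without day 7 replicate 1 the day 7 fold change was -0.62.

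The ratio of Rpl3l to Rpl3, in which a common library factor cancels, was 0.278, 0.324 and 0.325 at day 1, and 0.140, 0.393 and 0.505 at day 7, against 0.794, 1.09 and 0.551 in sham hearts. All infarct ratios were below all sham ratios. The difference of mean log2 ratios was -1.34 at day 1 and -1.37 at day 7, each with a two-sided exact permutation p of 0.1, the smallest that 3 against 3 libraries allow. Over 12 cardiomyocyte markers such as Myh6 and Tnnt2, summed levels were 21677 to 28273 FPKM at day 1, 18203 to 31323 FPKM at day 7 and 41552 to 47112 FPKM in sham hearts; none is at 0, and day 7 replicate 1 had the lowest sum as well as the lowest Rpl3l. Of these markers, 8 were called lower at day 1 and 6 at day 7. The part of cardiomyocyte content in the Rpl3l result was not tested, and in bulk tissue fewer cells of a type and less RNA per cell cannot be told apart.

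No other paralogue pair reached that p in a comparison with sham hearts. Rpl22l1 over Rpl22 was 0.151, 0.141 and 0.137 at day 1, and 0.162, 0.187 and 0.160 at day 7, against 0.121, 0.0724 and 0.162 in sham hearts; the day 7 ratios were all above the day 1 ratios (exact permutation p = 0.1, the smallest possible). Rpl36al over Rpl36a was separated the other way, with 0.440, 0.483 and 0.499 at day 7, against 0.506, 0.544 and 0.512 at day 1 (exact permutation p = 0.1). Rps27l, a p53-inducible relative of Rps27, stood at 0.0625, 0.0653 and 0.0792 of Rps27 at day 1, and 0.0636, 0.0585 and 0.0693 at day 7, against 0.0549, 0.0636 and 0.0574 in sham hearts. Two-sided exact permutation p-values against sham for Rpl7l1 over Rpl7, Rpl22l1 over Rpl22, Rpl36al over Rpl36a and Rps27l over Rps27 lay between 0.2 and 1. Over the 5 pairs and 3 comparisons no p was below 0.1, so none passes an adjustment.

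Rps24 also changed in which transcript its reads were assigned to. In GENCODE M21 its 2 entries carry a coding sequence of equal length, 390 bases. Rps24-201 starts 37 bases upstream of the pyrimidine run with which Rps24-202 opens, both then share 431 bases, and Rps24-202 has 88 more at its 3′ end. Rps24-202 had 173, 233 and 252 FPKM at day 1, and 158, 187 and 98.1 FPKM at day 7, against 111, 76.0 and 143 FPKM in sham hearts. All day 1 libraries were above all sham libraries, and day 7 overlapped sham. Fitted over all 20698 entries with a mean of 1 FPKM or more, it rose at day 1 by 1.02 (adjusted p = 0.0454 in limma) and was not called at day 7 (0.42, adjusted p = 0.329 in limma).

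Rps24-201, the main entry, had 1022, 938 and 1173 FPKM at day 1, and 1014, 1058 and 973 FPKM at day 7, against 1542, 1570 and 1582 FPKM in sham hearts. It fell by 0.59 at day 1 (adjusted p = 0.0191 in limma) and by 0.62 at day 7 (adjusted p = 0.0140 in limma). The share of the gene's FPKM given to Rps24-202 was 14.4, 19.9 and 17.7% at day 1, and 13.5, 15.0 and 9.15% at day 7, against 6.74, 4.62 and 8.26% in sham hearts. No infarct share was as low as the highest sham share. The entries share nearly all their bases, so these shares rest on how reads at the ends were divided. The rise of Rps24-202 was lost in 6 of 9 fits that leave out 1 library, those without sham replicate 1 or 2, any day 1 replicate or day 7 replicate 1 (adjusted p of 0.0524 to 0.142 in limma). The fall of Rps24-201 was lost in 5 at day 1, those without any sham replicate or day 1 replicate 1 or 2 (0.0583 to 0.0811), and in 1 at day 7, without sham replicate 2 (0.0508). On a common total Rps24-201 (ENSMUST00000112384) was at -0.31 and -0.27 and not called (adjusted p = 0.119 and 0.142 in limma), while Rps24-202 kept its day 1 call.

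**Figure D4:**
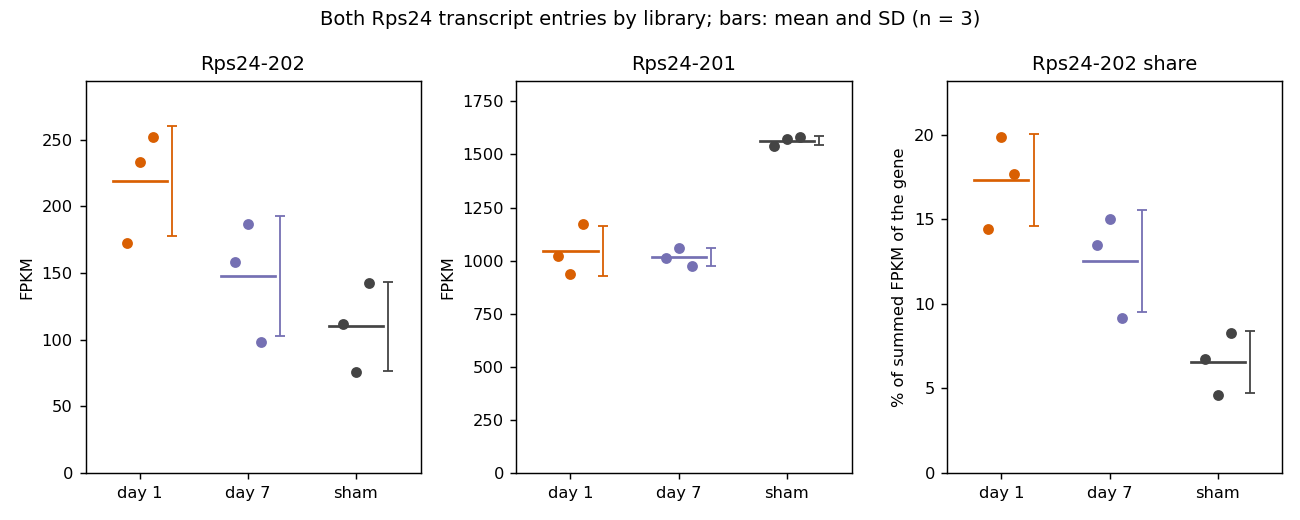
FPKM of both Rps24 transcript entries and the share of Rps24-202 in the gene's summed FPKM, by library (points) with mean and SD (n = 3). Rps24-201 is lower in all 6 infarct libraries than in sham, while the share of Rps24-202 is higher in all 6, from 9.15% to 19.9% against at most 8.26% in sham hearts.

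Among the 147 member entries tested, 8 were called at day 1 (5 higher and 3 lower; 18.2% of all entries, 8.29% higher and 9.92% lower), 9 at day 7 (1 higher and 8 lower; 22.6% of all, 10.1% higher and 12.5% lower) and 5 between day 7 and day 1, all lower (3.57% of all, 1.87% higher and 1.7% lower). Entries of a gene could differ in their calls. Rpl21-202 had 42.3, 61.4 and 44.5 FPKM at day 7, against 100, 81.8 and 106 FPKM in sham hearts, a fall of 0.96 (adjusted p = 0.00794 in limma), whereas Rpl21-201 had 66.2, 73.6 and 64.8 FPKM, against 87.6, 83.9 and 80.7 FPKM, and was not called at day 7 (-0.30, adjusted p = 0.0729 in limma). Rpl28-202, a minor entry of a large-subunit gene, had 16.5, 12.4 and 13.3 FPKM at day 7, against 26.3, 21.6 and 27.9 FPKM in sham hearts (-0.81, adjusted p = 0.00758 in limma). Rpl21-201 was lower at day 1 (-0.36, adjusted p = 0.0494 in limma), where Rpl21-202 was not called (-0.12, adjusted p = 0.647 in limma); that call of Rpl21-201 was lost in 8 of 9 fits that leave out 1 library, all but that without day 1 replicate 3. The day 7 falls of Rpl21-202 and Rpl28-202 held without any 1 library, but on a common total Rpl28-202 (ENSMUST00000078432) was at -0.47 and not called (adjusted p = 0.101 in limma).

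Minor entries of 2 genes fell strongly at day 7, Rps10-208 to near 0 in all day 7 libraries and Rpl11-210 to near 0 in day 7 replicate 3 only. Rps10-208 was listed at no more than 0.00221 FPKM in all day 7 libraries, against 62.9, 35.6 and 46.1 FPKM in sham hearts, and had 64.0, 36.4 and 25.9 FPKM at day 1. The fall at day 7 was 5.58 (adjusted p = 0.000278 in limma) and held without any 1 library. The whole Rps10 gene, a small-subunit component, was not called, with 416 ± 28.7 FPKM at day 7, against 430 ± 58.3 FPKM in sham hearts (SD, n = 3 each). Rpl11-210 had 6.86, 9.82 and 0.00310 FPKM at day 7, against 57.7, 44.9 and 102 FPKM in sham hearts, a fall of 3.89 (adjusted p = 0.0129 in limma). That call held without any 1 library, with log2 fold changes between -4.54 and -2.82. A value near 0 can be a failed estimate of how reads divide among entries, which was not tested.

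Rpl12, which sits at the base of the ribosomal stalk, showed a pattern unlike any other member. It had 3.39, 3.88 and 233 FPKM at day 7, 263, 271 and 350 FPKM at day 1, and 296, 262 and 310 FPKM in sham hearts. Day 7 replicates 1 and 2 were 68.9 and 60.2 times below the lowest other library, while day 7 replicate 3 was near the rest. The day 7 fold change of -4.08 ± 1.29 (SE; adjusted p = 0.0403 in limma) rests on those libraries, and its call was lost in 8 of 9 fits that leave out 1 library (adjusted p of 0.0518 to 0.129 in limma; all but that without day 7 replicate 3). Without day 7 replicate 1 the fold change was -3.10.

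A search chosen after these values were seen asked which genes with a mean of 20 FPKM or more were under an eighth of the lowest other library in both. It found 4: Rpl12, Hsp90aa1, which codes for the inducible cytosolic HSP90, Rrp1, a nucleolar factor of large-subunit assembly, and the long noncoding Gm26917. Hsp90aa1 had 1.71, 1.31 and 108 FPKM at day 7, against 119 to 245 FPKM in sham hearts. Rrp1 had 0.534, 0.248 and 32.1 FPKM, against 35.3 to 37.1 FPKM, and Gm26917 had 25.4, 26.6 and 3297 FPKM, against 2522 to 2699 FPKM. No gene was higher by the same rule, and no other pair of libraries within a group gave any gene. The cause was not tested.

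**Figure D5:**
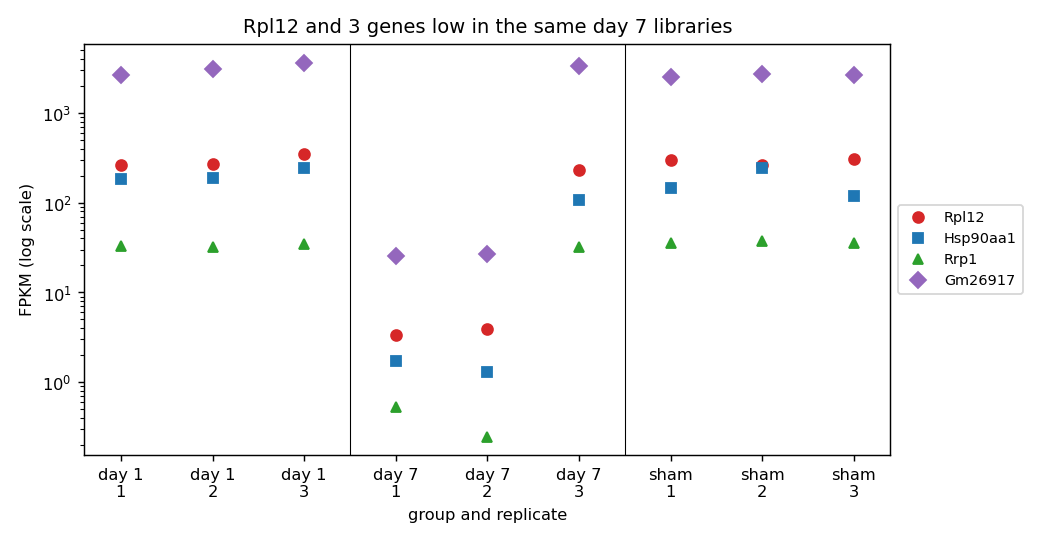
FPKM (log axis) of Rpl12, Hsp90aa1, Rrp1 and Gm26917 in each of the 9 libraries, by group and replicate. All 4 are low in day 7 replicates 1 and 2 and at the level of the other libraries in day 7 replicate 3.

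The rest of the stalk did not follow Rpl12. Rplp0, the stalk's anchor, had 216, 212 and 263 FPKM at day 1, and 242, 237 and 215 FPKM at day 7, against 218, 182 and 229 FPKM in sham hearts, with overlapping groups. Rplp2, the partner of Rplp1, had 608, 609 and 683 FPKM at day 1, and 570, 588 and 496 FPKM at day 7, against 781, 616 and 749 FPKM in sham hearts. The day 7 values of Rplp2 lay below all sham values, and the fold change of -0.37 missed the threshold (adjusted p = 0.0618 in limma), opposite in sign to that of Rplp1.

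Members with well known roles outside or at the edge of the ribosome were not called in any comparison. Rps6, the substrate of S6 kinase, had log2 fold changes of -0.10 at day 1 and -0.25 at day 7. Rpl5 and Rpl11, which bind 5S ribosomal RNA and, when free, the p53 ubiquitin ligase Mdm2, had -0.23 (Rpl5) and -0.12 (Rpl11) at day 1, then -0.30 and -0.29 at day 7. Rpl23, another Mdm2 binder, was at -0.22 and -0.28. Rps19, the gene most often mutated in Diamond-Blackfan anaemia in people, was at -0.00 and 0.05, Rps14 at -0.24 and -0.13, and Rpl10, a late-joining large-subunit protein, at 0.12 and 0.15. The adjusted p-values of these genes in limma were 0.124 or higher.

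Fau, a ribosomal component outside the name rule that codes for a ubiquitin-like protein fused to Rps30, was not called. It had 359, 362 and 423 FPKM at day 1, and 466, 449 and 363 FPKM at day 7, against 444, 346 and 424 FPKM in sham hearts, with overlapping groups and log2 fold changes of -0.08 and 0.07 (adjusted p = 0.710 and 0.728 in limma).

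The lists of other genes below are read against all genes tested, of which 13.4% were higher and 14.7% lower at day 1, and 15.7% higher and 17.3% lower at day 7. In the members' fit on a common total, 21.4% of all genes at day 1 and 30.9% at day 7 were called in either direction. Of 12 genes of RNA polymerase I and its factors, 0 were higher and 2 lower at day 1 (16.7% lower), and 0 higher and 5 lower at day 7 (41.7%, against 17.3% of all genes), with a median of -0.17 at day 7 beside -0.02 for all genes. Polr1a, the largest polymerase I subunit, had 3.81, 5.92 and 6.18 FPKM at day 7, against 8.17, 9.66 and 8.71 FPKM in sham hearts (-0.66, adjusted p = 0.0126 in limma). Taf1a, a subunit of the promoter selectivity factor, was at -0.64, Polr1e at -0.58 and Rrn3, which recruits the polymerase, at -0.54. The Polr1a, Taf1a and Rrn3 falls at day 7 held without any 1 library, and that of Polr1e was lost without sham replicate 3 or day 7 replicate 2 (adjusted p up to 0.0554 in limma). At day 7, 0 of the 12 were called on a common total. With mitochondrially encoded genes left out of that total, 0 were higher and 3 lower, beside 32.8% of all genes called in the members' fit. With quantile normalization Polr1a (-0.70, adjusted p = 0.0125 in limma), Taf1a (-0.64), Polr1e (-0.59) and Rrn3 (-0.51) kept their day 7 calls, beside 29.8% of all genes called.

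Of 53 genes for assembly and ribosomal RNA processing, 1 was higher and 3 lower at day 1, and 0 higher and 12 lower at day 7 (medians 0.03 and -0.25). The lower calls were 5.66% at day 1, against 14.7% of all genes, and 22.6% at day 7, against 17.3%. The largest day 7 fall was that of Rrp12, an export factor of pre-ribosomes, with 0.0257, 0.0248 and 5.85 FPKM at day 7, against 5.52, 9.68 and 7.40 FPKM in sham hearts. Rrp9, a protein of the U3 small nucleolar ribonucleoprotein, had 1.12, 1.13 and 6.03 FPKM, against 6.82, 7.94 and 6.50 FPKM, and Nop2, a ribosomal RNA methyltransferase, 3.60, 3.55 and 5.75 FPKM, against 7.48, 7.35 and 6.83 FPKM. All 3 were lowest in day 7 replicates 1 and 2, the libraries in which Rpl12 was low, and their calls were lost without either (adjusted p up to 0.132, 0.115 and 0.0740 in limma). They also depended on other libraries: the Rrp12 call was lost in 7 of 9 such fits, that of Rrp9 in 6 and that of Nop2 in 4. Gnl2, a nucleolar GTPase of large-subunit assembly, fell at day 7 by 0.56 and kept its call in every such fit. On a common total, 2 of the 53 were higher and 2 lower at day 7, and 10 higher and 0 lower at day 1. With mitochondrially encoded genes left out of that total, 1 was higher and 7 lower at day 7, and 13 higher and 0 lower at day 1. In the members' fit with that total, 32.8% of all genes were called at day 7 and 29.9% at day 1.

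Dedicated chaperones and importers of ribosomal proteins gave 3 higher and 2 lower of 19 at day 1 (15.8% and 10.5%, against 13.4% and 14.7% of all genes), and 0 higher and 7 lower at day 7 (36.8% lower, against 17.3%). Bccip, whose yeast counterpart is a chaperone of Rpl23, fell at both times, by 0.61 and 0.75, in every fit that leaves out 1 library. Cytosolic tRNA synthetases, of which 20 of 38 names were found, gave 1 higher and 3 lower at day 1 (15% lower, against 14.7% of all genes), and 0 higher and 6 lower at day 7 (30%, against 17.3%). Wars fell by 0.73 and 0.84 and Kars by 0.35 and 0.68. Their day 7 calls held without any 1 library, whereas at day 1 Wars lost its call without sham replicate 2 (adjusted p = 0.0533 in limma) and Kars without any sham replicate or day 1 replicate 1 or 2 (up to 0.101). On a common total the chaperones and importers gave 4 higher and 0 lower at day 1, and 3 higher and 1 lower at day 7, and the synthetases 3 and 0, and 1 and 1.

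Of 40 initiation factors, 1 was higher and 6 lower at day 1, and 1 higher and 12 lower at day 7 (medians -0.14 and -0.26). The lower calls were 15% at day 1, against 14.7% of all genes, and 30% at day 7, against 17.3%. Pabpc1, the main poly(A)-binding protein, rose, with 133, 145 and 170 FPKM at day 1, and 135, 134 and 118 FPKM at day 7, against 82.7, 73.1 and 87.3 FPKM in sham hearts (0.87 and 0.66; adjusted p = 0.00339 and 0.00731 in limma). Its relative Pabpc4 fell by 0.70 and 0.67, the cap-binding protein Eif4e by 0.56 and 0.69, and Eif1, which guards start codon choice, by 0.57 and 0.62. The calls of Pabpc1 and Pabpc4 held without any 1 library at both times, and Pabpc1 kept its direction on a common total (1.15 and 1.02), where the list gave 3 higher and 2 lower, and 3 higher and 1 lower. At day 1, Eif4e lost its call in 4 of 9 such fits, those without sham replicate 1 or 2 or day 1 replicate 1 or 2, and Eif1 in 2, those without sham replicate 2 or day 1 replicate 2 (adjusted p up to 0.0766 and 0.0601 in limma).

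Among 14 elongation factors and related genes, 1 was higher and 1 lower at day 1, and 2 higher and 4 lower at day 7 (14.3% and 28.6%, against 15.7% and 17.3% of all genes). The list is mixed: it includes the mitochondrial factors Gfm1 and Tsfm, the release factors Gspt1 and Etf1, the kinase Eef2k and the tRNA synthetase partner Eef1e1. The 4 lower at day 7 were Eef1a2, Eef1d, Eef1e1 and Gfm1. The 2 forms of elongation factor 1A parted: Eef1a2, the form of adult muscle and neurons, had 290, 262 and 325 FPKM at day 1, and 209, 276 and 318 FPKM at day 7, against 501, 479 and 491 FPKM in sham hearts (-0.75 and -0.89; adjusted p = 0.0121 and 0.00705 in limma). Eef1a1, the form of most other cells and itself a TOP mRNA, had 1347, 1270 and 1289 FPKM at day 1, and 1475, 1210 and 1057 FPKM at day 7, against 977, 727 and 922 FPKM (0.58 and 0.51; adjusted p = 0.0321 and 0.0458 in limma). No infarct library overlapped sham for either gene. The Eef1a1 call was lost in 7 and 8 of 9 fits that leave out 1 library, up to an adjusted p of 0.113 at day 1 and 0.154 at day 7 in limma; it was kept at day 1 without day 7 replicate 1 or 3, and at day 7 without day 7 replicate 3. That of Eef1a2 was lost in 1 at day 1, without day 1 replicate 2 (0.0502).

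Many of the 27 other RNAs known to carry a TOP tract also stand in the lists above, among them Eef1a1, Pabpc1, Eef1d, Eif3h, Nap1l1 and Fau. Their counts are therefore not independent of those lists. Noncoding host genes of small nucleolar RNAs, such as Snhg5, are included too. Of the 27, 5 were higher and 1 lower at day 1, and 3 higher and 3 lower at day 7 (medians 0.05 and -0.03). The higher calls were 18.5% at day 1, against 13.4% of all genes, and 11.1% at day 7, against 15.7%. On a common total they were 8 higher and 0 lower, and 6 higher and 0 lower. Vim, which codes for vimentin of mesenchymal cells, rose by 1.24 and 1.20, with 483, 460 and 512 FPKM at day 1, and 586, 435 and 413 FPKM at day 7, against 220, 161 and 243 FPKM in sham hearts. Summed levels of 8 fibroblast markers were 1932 to 2497 FPKM at day 1, 4893 to 6984 FPKM at day 7 and 1190 to 1500 FPKM in sham hearts, with 5 and 6 of the 8 called higher; their part in these results was not tested. Of 10 genes tested under 9 macrophage marker names, 6 and 5 were called higher. Of 6 neutrophil markers 6 and 0 were called higher, and of 10 markers of dividing cells 10 and 9.

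Among 26 regulators of ribosomal protein mRNAs and of nucleolar stress, 3 were higher and 8 lower at day 1 (11.5% and 30.8%, against 13.4% and 14.7% of all genes), and 3 higher and 6 lower at day 7 (11.5% and 23.1%, against 15.7% and 17.3%). Myc, which drives ribosome production, rose at day 1, with 7.04, 8.06 and 13.9 FPKM, against 4.83, 4.83 and 4.43 FPKM in sham hearts (0.85, adjusted p = 0.0168 in limma; lost without sham replicate 2 or 3, up to 0.0517). Trp53, which codes for p53, rose by 0.52 and 0.70 in every fit that leaves out 1 library, and the RNA-binding protein Cnbp fell by 0.64 and 0.71 in every one. Rps6ka1, an S6 kinase, rose by 0.85 and 0.71; its day 7 call was lost without sham replicate 2 or day 7 replicate 1 or 2 (up to 0.0638). On a common total the list gave 3 higher and 1 lower, and 4 higher and 2 lower. Over all pathway lists, 10 of 37 gene calls at day 1 and 24 of 60 at day 7 held without any 1 library.

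Without both libraries with airway markers most day 1 calls of these lists were lost, as were most of those over all genes. In that fit 2.97% of all genes were called in either direction at day 1 and 15.7% at day 7, against 28.2% and 33.1% as reported. The polymerase I, assembly, chaperone, elongation, regulator and synthetase lists then had 0 calls at day 1 in limma, the initiation list 1 higher and the TOP list 2 higher. Pabpc1 (0.91, adjusted p = 0.0480 in limma) and Vim (1.33, adjusted p = 0.0494) kept their day 1 calls, while Bccip (-0.56, 0.0977), Pabpc4 (-0.63, 0.0852), Eef1a1 (0.69, 0.125), Eef1a2 (-0.66, 0.120), Myc (0.96, 0.0866), Rps6ka1 (0.72, 0.0940), Trp53 (0.55, 0.0857) and Cnbp (-0.59, 0.105) did not. At day 7 the lower calls were 4 for polymerase I, 3 for assembly, 2 for chaperones, 7 for initiation, 2 for elongation, 2 for regulators and 3 for synthetases. Of the genes named above, Eef1a1, Rps6ka1, Rrp12, Rrp9 and Nop2 lost their day 7 calls.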

How the data were processed

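Per the labels' protocols, TRIzol was used to extract RNA from mouse hearts, and libraries were built by the VAHTS Universal V6 kit. The submitters' processing notes name FastQC 0.11.9, HISAT2 2.1.0, HTSeq 0.11.2 and the build GRCm39. The authors deposited FPKM per transcript entry, but the sources used here do not give the annotation release, the use of strand or the tool behind these FPKM. FPKM of the entries of a gene were summed. Genes with a mean of 1 FPKM or more were tested on log2(FPKM + 1), a scale that understates changes of low genes, with limma 3.58.1 in R 4.3.3 (trended variance, 1 mean per group, all 9 libraries in the fit), and genes were called at a Benjamini-Hochberg adjusted p under 0.05. The comparisons were day 1 minus sham, day 7 minus sham and day 7 minus day 1, and both comparisons with sham share the same 3 sham libraries. Paralogue ratios were compared by two-sided exact permutation tests. The fit was tested on simulated data with independent noise for each gene and no shift of whole libraries. That test cannot speak for calls where whole libraries shift together, as they did here. Transcript starts came from GENCODE M21 (GRCm38), matched by transcript ID.

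Named members were paralogues and their parents, up to 6 called members of largest rise and fall per comparison, the 5 highest and lowest by level, the stalk genes, and Rps6, Rpsa, Rpl5, Rpl11, Rps14, Rps19, Rpl10 and Rpl23; each pathway list named up to 4 called genes of largest change per comparison. Other genes, transcript entries and members named were chosen after their values were seen. The members and lists were chosen with earlier results of these data known.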

Additional observations from a re-analysis of the deposited data

Results flagged for a closer look

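The change from sham differed between the infarct times, by a test of day 7 minus day 1 in limma, for entries of 5 members. These were 5 of the 147 member entries tested (3.4%), near the 3.57% of all entries called. Entry ENSMUST00000178774 of Rps10 was at no more than 0.00221 FPKM in all day 7 libraries, against 64.0, 36.4 and 25.9 FPKM at day 1, a log2 fold change of -5.33 (adjusted p = 0.000622). Entry ENSMUST00000155873 of Rpl11 had a log2 fold change of -3.71 (adjusted p = 0.0411), and ENSMUST00000078432 of Rpl28 one of -1.08 (adjusted p = 0.00769). Entry ENSMUST00000075453 of Rpl21 was lower, at -0.835, (adjusted p = 0.0334) and ENSMUST00000127896 of Rps27l at -0.49 (adjusted p = 0.0463). The Rps10 and Rpl28 differences held without any 1 of the 9 libraries. That of Rps27l was lost in all 9 such fits (adjusted p up to 0.134), that of Rpl21 in 7, all but those without sham replicate 2 or day 7 replicate 2 (up to 0.102), and that of Rpl11 in 7, all but those without day 7 replicate 2 or 3 (up to 0.108).

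Among the pathway lists, Nop2 was lower at day 7 than at day 1, at -0.882 (adjusted p = 0.0304), the cysteinyl-tRNA synthetase Cars at -0.499 (0.0494) and the threonyl-tRNA synthetase Tars at -0.438 (0.0343), while Mycn, a relative of Myc, was higher by 0.757 (0.0261). They were 1 of 53 assembly genes (1.89%), 2 of 20 synthetases (10%) and 1 of 26 regulators (3.85%), against 4.85% of all genes tested. None of these 4 calls held in every fit that leaves out 1 library.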

How the results depend on the processing

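As reported, 3, 5 and 0 members were called at day 1, at day 7 and for day 7 minus day 1. The shares of all genes called were 28.2%, 33.1% and 4.85%, and those of each setting below stand in brackets. Leaving out 1 library gave 0 to 8 (13% to 31.5%), 1 to 11 (16% to 36.2%) and 0 to 1 calls (1.01% to 3.71%). At day 1 there was 1 call with no filter on low values (16.4%) and 6 with quantile normalization (27%). Array weights gave 23 (41%) and the replicate number as a block gave 1 (22.5%). There were 0 without both libraries with airway markers (2.97%) and 8 over transcript entries (18.2% of all entries). At day 7 there were 3 with no filter (18.5%), 9 on a common total in TPM (30.9%) and 8 without the trend (32.8%). Array weights gave 17 (35.1%). There were 0 without both libraries with airway markers (15.7%) and 9 over transcript entries (22.6% of all entries). For day 7 minus day 1 there was 1 with the most expressed transcript (4.99%) and 5 over transcript entries (3.57% of all entries).

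The members' median was 0.17 at day 1 and 0.21 at day 7 on a common total, 0.12 and 0.074 on a common total without mitochondrially encoded genes, and 0.17 and 0.074 with quantile normalization. Leaving out 1 library gave -0.20 to -0.04, -0.24 to -0.09 and -0.10 to 0.08. Relative to the members' mean, 1 and 3 members were called when centred on the median, and 3 at day 7 with Rpl12 left out; leaving out 1 library gave 0 to 3, 1 to 6 and 0 to 1. The cause of these changes was not tested. Fits over transcript entries, without Rpl12, and the leave-one-out fits relative to the members were added after seeing the data.

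Same-numbered libraries did not deviate together (r of -0.37 to 0.269), so the numbers were not taken as pairs. The replicate block gave 1, 5 and 0 calls, beside 22.5%, 26.7% and 1.75% of all genes. Depth is unknown, so no counting interval can be given, and 3 libraries a group limit every test.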
